A study of Mus musculus with 7 samples.

Results

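The genes described here are Tnfrsf11b, which encodes osteoprotegerin, and 4 genes of the proteins it works with: Tnfsf11 (RANKL), Tnfrsf11a (RANK), Tnfsf10 (TRAIL) and Tnfrsf10b (a TRAIL receptor). They are 5 of the 19938 genes measured in pancreatic islets of pregnant mice. Each is represented by a single probe set that the array's annotation assigns to that symbol alone, so no choice between probe sets was needed. The group was chosen by the genotype difference of Tnfrsf11b in these same arrays, together with the known partners of its protein. The genotype differences below are therefore descriptions and carry no test.

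Osteoprotegerin is a secreted member of the TNF receptor family that has no membrane anchor and acts as a decoy. It binds RANKL and keeps it from its receptor RANK, whose signal runs through TRAF adaptors and NF-κB and is best known for driving the formation of bone-resorbing osteoclasts. It also binds TRAIL, a death ligand that acts in the mouse through the death-domain receptor encoded by Tnfrsf10b. In islets, Tnfrsf11b is known as a gene that rises in pregnancy and under prolactin or placental lactogen, and osteoprotegerin has been linked to beta cell proliferation through the RANKL and RANK pair.

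Islets were compared between 3 PrlR+/+ females, which have an intact prolactin receptor gene, and 4 PrlR+/- females, heterozygous for its null allele. All 7 mice were on a C57BL/6 background, were mated when 12 to 16 weeks old and were studied at day 15 of pregnancy, and no other allele or treatment is named for either group. The labels name no promoter or Cre that would restrict the allele to a cell type, so it is not known to be limited to islets. Each mouse gave 1 array, and the titles number the mice 1 to 3 and 1 to 4. Values are log2 array values, and a difference of 1 stands for a doubling.

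Precision is limited by having 3 and 4 arrays: the median standard error (SE) of a log2 difference over all genes was 0.0977. The array medians lay between 7.34 and 7.37, and pairs of arrays correlated across genes, which are not independent replicates, at 0.988 to 0.997. The lower quartile of an array was 5.62 to 5.82. Genotypes are as labelled, since Prlr itself was not analysed here. Beta cell markers averaged 11.71 to 12.07 in the 7 mice, far above the array medians, and so did acinar markers of the exocrine pancreas, at 11.71 to 12.22. T cell markers were dim, at 5.48 to 5.80, with Cd3g between 4.16 and 4.52. In such whole-islet RNA, fewer cells of a type and less RNA per cell cannot be told apart.

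Osteoprotegerin was lower in PrlR+/- islets. The Tnfrsf11b log2 values were 9.95, 9.36 and 9.68 in PrlR+/+ 1, 2 and 3. They were 9.20, 8.81, 8.47 and 9.34 in PrlR+/- 1, 2, 3 and 4. All PrlR+/- values were lower than all PrlR+/+ values, but the closest pair, PrlR+/+ 2 and PrlR+/- 4, was only 0.02 apart. The group means were 9.66 ± 0.30 (SD, n = 3) and 8.96 ± 0.39 (SD, n = 4), a difference of -0.71 ± 0.23 (SE) with a 95% interval of -1.25 to -0.17. On the linear scale this is a PrlR+/- to PrlR+/+ ratio of 0.612, with an interval of 0.421 to 0.890. Only 22 of the 19938 genes had a lower difference, a rank that is given as a description since the gene was picked for it. The intervals of the difference and of the ratio do not allow for this choice either.

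Of the 19938 genes, 446 or 2.24% had groups that did not overlap, 241 (1.21%) with PrlR+/- lower and 205 (1.03%) with PrlR+/- higher. Of the 5 genes here, Tnfrsf11b alone was among them, and nothing is read from that count because it was the reason for the choice. After quantile normalization the split over all genes was 195 lower and 516 higher. Under that scaling the Tnfrsf11b groups overlapped, with 9.33 in PrlR+/+ 2 below 9.39 in PrlR+/- 4, while the difference was -0.69. Across the 11 alternatives the Tnfrsf11b difference lay between -0.86 and -0.55, nearest to 0 without PrlR+/- 3, which had the lowest value.

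Markers of other cell types were set beside it. None of them passed the test over all genes, of which 56.2% were higher in PrlR+/-. Macrophage and dendritic cell markers averaged 6.64 to 6.72 in PrlR+/+ and 6.74 to 6.87 in PrlR+/- mice, with 5 of 8 genes higher, T cell markers were higher for 6 of 6 genes, and stellate and fibroblast markers for 8 of 9. Acinar markers were higher for 5 of 5 genes, with means of 11.71 to 11.99 against 11.73 to 12.22. The 2 alpha cell markers, both higher, averaged 11.36 to 11.37 in PrlR+/+ and 11.40 to 11.46 in PrlR+/- mice, and beta cell markers had 3 of 7 genes higher. The list means of the genotypes did not overlap for the macrophage and alpha cell lists. The part of these cells in the Tnfrsf11b difference was not tested.

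**Figure D1:**
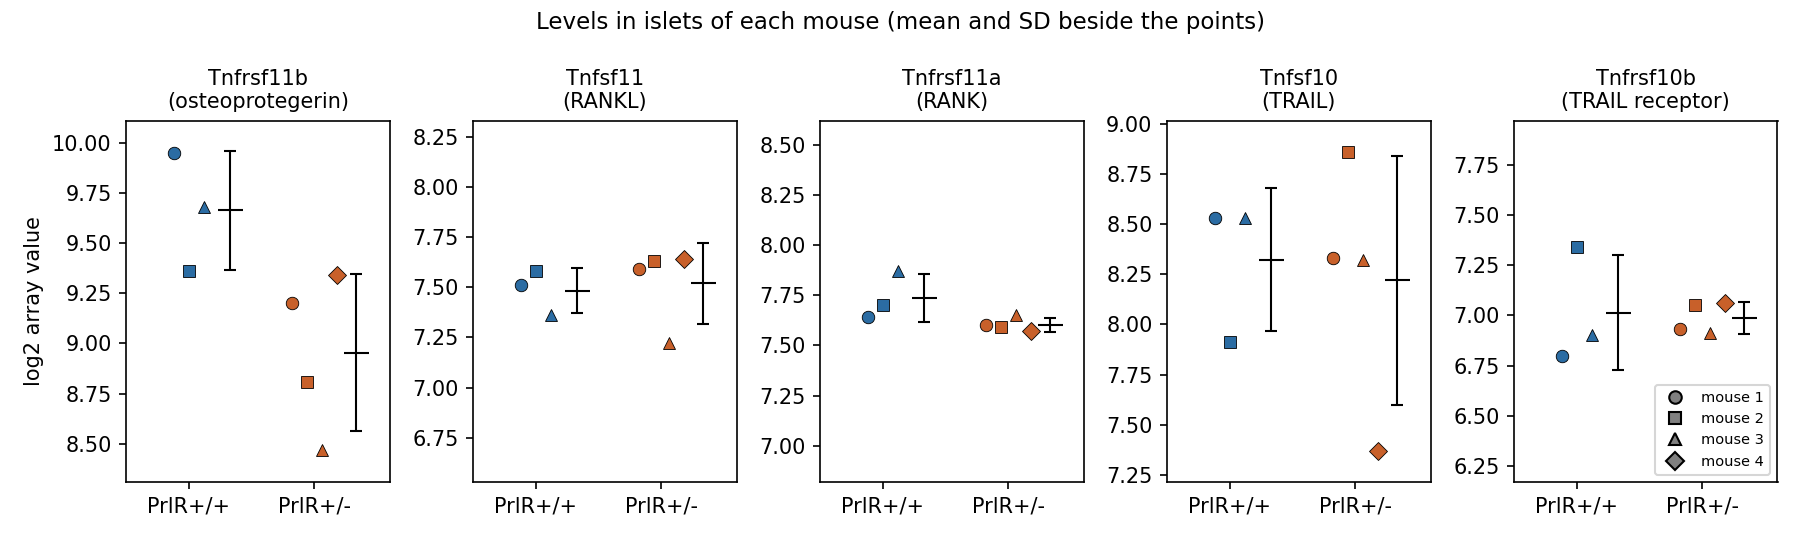
Log2 array values of the 5 genes in each mouse, 1 panel per gene with the same height of 1.8 log2 units, PrlR+/+ in blue and PrlR+/- in orange; symbols mark the mouse number and the bars are mean and SD (n = 3 and n = 4). The Tnfrsf11b groups are separate by 0.02, and the groups of the 4 other genes overlap.

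Its first ligand, RANKL, differed little between the genotypes. Tnfsf11 stood at 7.51, 7.58 and 7.36 in PrlR+/+ 1 to 3 and at 7.59, 7.63, 7.22 and 7.64 in PrlR+/- 1 to 4. Of the PrlR+/- mice, 3 lay just above all PrlR+/+ mice and the other one, PrlR+/- 3, was the lowest of the 7. The difference was 0.04 ± 0.12 (SE; 95% interval -0.24 to 0.31), which allows a ratio between 0.847 and 1.24. It was 0.14 without PrlR+/- 3, and between -0.03 and 0.09 when any other mouse was left out. Without PrlR+/- 3 the groups no longer overlapped, as for 987 of the 19938 genes in that setting, 582 of them higher in PrlR+/-.

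RANK, the signalling receptor for RANKL, had the smallest spread of the 5 genes. Tnfrsf11a was at 7.64, 7.70 and 7.87 in the PrlR+/+ mice and at 7.60, 7.59, 7.65 and 7.57 in the PrlR+/- mice. The groups overlapped by 0.01, since PrlR+/- 3 lay just above PrlR+/+ 1. They were separate when either of these mice was left out. Of the 19938 genes, 630 were separate and lower without PrlR+/+ 1, and 405 without PrlR+/- 3. The Tnfrsf11a difference was -0.13 ± 0.07 (SE, 95% interval -0.30 to 0.03). It was negative in all 11 alternatives, from -0.18 without PrlR+/+ 1 to -0.07 without PrlR+/+ 3, the mouse with the highest value. The spread within genotypes (pooled SD) was 0.08 for Tnfrsf11a against a median of 0.13 over all genes, and 0.36 for Tnfrsf11b.

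TRAIL, the other ligand of osteoprotegerin, varied the most between mice of a genotype. Tnfsf10 was at 8.53, 7.91 and 8.53 in PrlR+/+ 1 to 3 and at 8.33, 8.86, 8.32 and 7.37 in PrlR+/- 1 to 4. The PrlR+/- group held both the highest and the lowest of the 7 values, which were 2.81-fold apart. Its pooled SD of 0.53 exceeded that of 99.0% of genes. The difference was -0.10 ± 0.34 (SE), and its 95% interval of -0.90 to 0.69 leaves a ratio anywhere between 0.537 and 1.61. Leaving out PrlR+/- 4 turned it to 0.18 and leaving out PrlR+/- 2 to -0.32.

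Tnfrsf10b, the TRAIL death receptor, showed no clear direction. Its values were 6.80, 7.34 and 6.90 in the PrlR+/+ mice and 6.93, 7.05, 6.91 and 7.06 in the PrlR+/- mice, so the PrlR+/- range lay inside the PrlR+/+ range. The difference was -0.03 ± 0.13 (SE; 95% interval -0.33 to 0.28). It became 0.14 without PrlR+/+ 2, the highest mouse, and -0.13 without PrlR+/+ 1, the lowest. Without PrlR+/+ 2 the groups were separate with PrlR+/- higher, as for 1035 of the 19938 genes in that setting.

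Start-site sequences for 3 of the 5 genes, Tnfsf11, Tnfrsf11a and Tnfsf10, were found in RefSeq (build GRCm38.p6). They are shown, for the genes with an entry in the promoter table, because the prolactin receptor acts through STAT proteins. Each line gives the 250 bases before the transcription start, 5′ to 3′ on the strand of the gene, with CG dinucleotides in capitals. Tnfsf11 lies on the minus strand at chr14:78308044-78308293, Tnfrsf11a on the plus strand at chr1:105780473-105780722 and Tnfsf10 on the plus strand at chr3:27316827-27317076.
Tnfsf11: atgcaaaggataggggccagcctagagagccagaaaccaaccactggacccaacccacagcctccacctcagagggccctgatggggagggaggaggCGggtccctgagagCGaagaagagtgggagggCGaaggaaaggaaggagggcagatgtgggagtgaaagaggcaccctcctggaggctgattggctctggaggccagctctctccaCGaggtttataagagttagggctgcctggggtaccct
Tnfrsf11a: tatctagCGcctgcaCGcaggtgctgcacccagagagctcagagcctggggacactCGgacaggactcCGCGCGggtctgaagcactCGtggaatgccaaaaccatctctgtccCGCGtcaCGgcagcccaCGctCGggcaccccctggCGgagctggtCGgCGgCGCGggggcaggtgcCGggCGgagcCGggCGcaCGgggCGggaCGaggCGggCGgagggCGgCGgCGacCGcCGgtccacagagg
Tnfsf10: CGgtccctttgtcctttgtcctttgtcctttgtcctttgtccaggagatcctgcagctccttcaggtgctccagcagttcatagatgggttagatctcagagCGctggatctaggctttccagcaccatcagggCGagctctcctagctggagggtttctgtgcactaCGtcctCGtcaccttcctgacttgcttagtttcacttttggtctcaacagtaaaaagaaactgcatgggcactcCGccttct

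The window of RANK stands out by its base makeup, with 31 CG dinucleotides and 73.6% G and C, more CG than 94.8% of the 32851 windows of this length in the table. The windows of RANKL and TRAIL hold 4 and 6, where the median is 6. The STAT motif TTCNNNGAA, which reads the same on both strands, was searched in the 3 windows and matched none, as it matches 7.02% of all windows. A TATA motif, TATAAA or TATAAG on either strand, was found in the window of RANKL and in 17.0% of all windows. These are matches of letters in 250 bases and say nothing about where a factor binds. No window was at hand for Tnfrsf11b and Tnfrsf10b, so neither was searched and the result has no bearing on osteoprotegerin.

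The balance of decoy to ligand is often given as the osteoprotegerin to RANKL ratio. Levels of different probe sets cannot be set against each other, so only the change of such a ratio between mice is meaningful here. The log2 ratio of Tnfrsf11b to Tnfsf11 was 2.44, 1.78 and 2.32 in the PrlR+/+ mice and 1.61, 1.18, 1.25 and 1.70 in the PrlR+/- mice. The groups did not overlap and were 0.08 apart at their closest. This separation is a description only, since Tnfrsf11b was chosen by its genotype difference. The PrlR+/- mean was lower by 0.75 ± 0.23 on the log2 scale (unmoderated SE), or 0.597 of the PrlR+/+ mean, and leaving out single mice gave differences of -0.95 to -0.62. Nearly all of this change lay in Tnfrsf11b, as the Tnfsf11 means differed by 0.04.

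The ratio of osteoprotegerin to TRAIL was less even. Its log2 values were 1.42, 1.45 and 1.15 in the PrlR+/+ mice and 0.87, -0.05, 0.15 and 1.97 in the PrlR+/- mice. Of the PrlR+/- mice, 3 lay below all PrlR+/+ mice, and PrlR+/- 4, where Tnfsf10 was lowest, lay above them all. The difference was -0.61 ± 0.55 (unmoderated SE), and it was -1.02 without PrlR+/- 4 and -0.34 without PrlR+/- 2. For the pairs of ligand and signalling receptor the groups overlapped: the Tnfsf11 to Tnfrsf11a ratio differed by 0.17 ± 0.18 and the Tnfsf10 to Tnfrsf10b ratio by -0.08 ± 0.49.

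**Figure D2:**
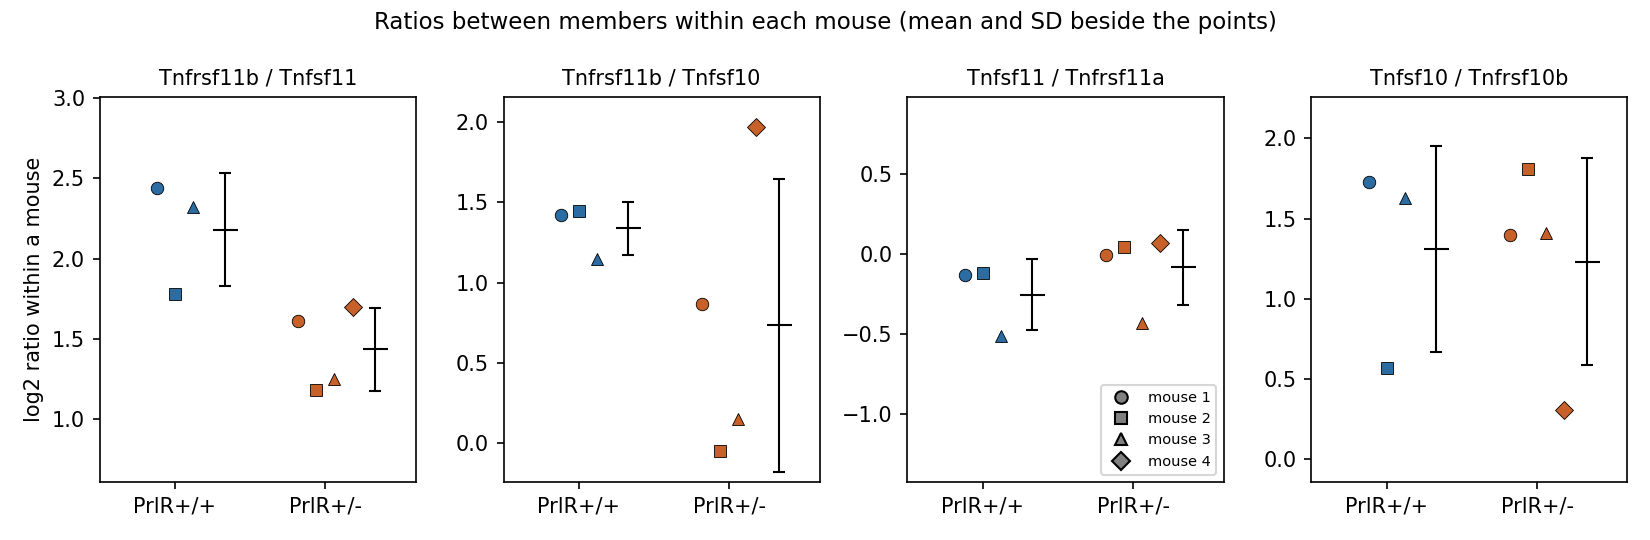
Log2 ratio of 2 genes of the group within each mouse, 1 panel per pair with the same height of 2.4 log2 units; symbols mark the mouse number and the bars are mean and SD (n = 3 and n = 4). The osteoprotegerin to RANKL ratio is lower in all 4 PrlR+/- mice, and in the osteoprotegerin to TRAIL panel PrlR+/- 4 stands above the other PrlR+/- mice at 1.97.

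The 5 genes did not all vary together from mouse to mouse. Over the 7 arrays, the Pearson correlation of Tnfrsf11b was 0.26 with Tnfsf11, 0.37 with Tnfrsf11a, -0.09 with Tnfsf10 and -0.17 with Tnfrsf10b. The strongest correlation among the 10 pairs was that of RANKL with RANK, -0.52. For deviations from the genotype means, Tnfrsf11b correlated at 0.55 with Tnfsf11 and at -0.34 with Tnfrsf11a, where the sign turned. With Tnfsf10 and Tnfrsf10b it was then at -0.27 and -0.35, and RANKL with RANK was again the strongest pair, at -0.62. These are descriptions over 7 points that share the 2 genotypes and the array scaling.

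Other genes followed Tnfrsf11b more closely. They were ranked by Pearson correlation over the 7 mice among 3000 genes with a mean above the median of all genes and an SD of at least 0.2. The 5 closest were Znrf2, an E3 ubiquitin ligase (0.985), Gadd45a, a stress-induced growth-arrest gene (0.890), Tph1, the islet enzyme of serotonin synthesis (0.881), Txnrd2, the mitochondrial thioredoxin reductase (0.871), and Armcx4 (0.865). Lrrc55, an auxiliary subunit of BK potassium channels, came next at 0.861; it was outside the rule and is named because its genotype difference in these arrays was already known. At the other end stood Mlph, a melanosome transport adaptor (-0.924), the olfactory receptor gene Olfr558 (-0.923) and Net1, an exchange factor for RhoA (-0.882). Without PrlR+/+ 1 and PrlR+/- 3, the 2 mice farthest from the Tnfrsf11b median, the correlation was 0.989 for Gadd45a, 0.507 for Txnrd2 and 0.727 for Armcx4. It was -0.689 for Mlph, -0.909 for Olfr558 and -0.578 for Net1.

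Znrf2 tracked osteoprotegerin within the genotypes as well as between them. In the PrlR+/+ mice it stood at 10.62, 10.32 and 10.60, and in the PrlR+/- mice at 10.32, 10.09, 9.89 and 10.39. The PrlR+/- mice kept the order they had for Tnfrsf11b, and in the PrlR+/+ mice mouse 1 was highest and mouse 2 lowest for both genes. The correlation of the deviations from the genotype means was 0.977, and it was 0.976 for the values without PrlR+/+ 1 and PrlR+/- 3. By deviations the next genes were Prkd1, a protein kinase (0.951), Spc25 of the kinetochore (0.944), Tmc7 (0.939) and Arl15 (0.923). These ranks were taken over 7 points that share arrays and genotypes, and they say nothing of shared control.

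Tph1 and Lrrc55 resembled Tnfrsf11b in different ways. Tph1 stood at 11.71, 10.70 and 11.29 in the PrlR+/+ mice and at 10.72, 10.33, 7.64 and 10.12 in the PrlR+/- mice. The mouse with the least Tph1, PrlR+/- 3, also had the least Tnfrsf11b, and without it and PrlR+/+ 1 the correlation was 0.662. Lrrc55 was at 10.17, 9.92 and 10.42 in the PrlR+/+ mice and at 9.44, 9.33, 9.25 and 9.50 in the PrlR+/- mice, and its correlation without the same pair of mice was 0.862. The PrlR+/- mice had the same order for Lrrc55 as for Tnfrsf11b, with PrlR+/- 4 highest and PrlR+/- 3 lowest.

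**Figure D3:**
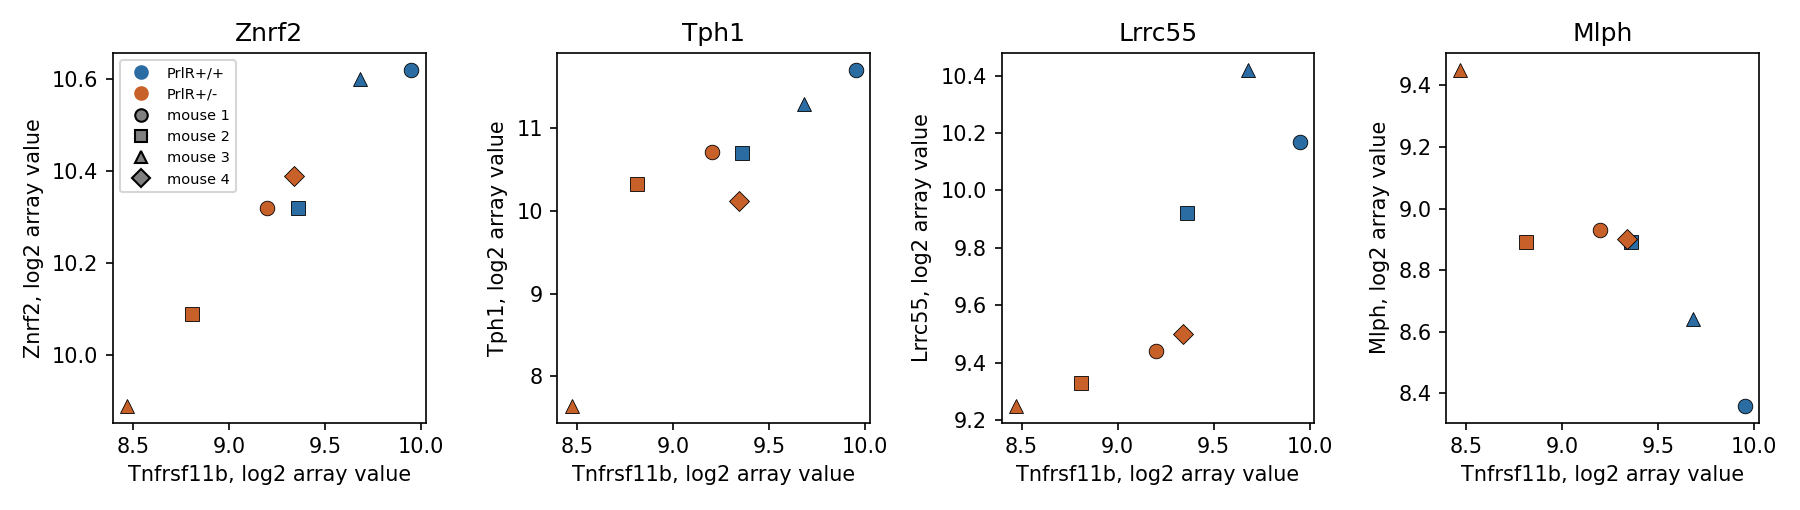
Log2 array value of Tnfrsf11b (horizontal axis) against that of Znrf2, Tph1, Lrrc55 and Mlph (vertical axes), 1 point per mouse, PrlR+/+ in blue and PrlR+/- in orange, symbols marking the mouse number. Znrf2 lies closest to a line, at a correlation of 0.985, and PrlR+/- 3 lies at the far left of each panel.

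Genes known to respond to prolactin or pregnancy in islets were examined as a list of 19 measured genes without Tnfrsf11b. The list was written with earlier results of these arrays known, so its direction is not independent evidence. Beyond Foxm1, Birc5, Lrrc55 and Ivd, its genes are named here after their values were seen. Its members correlated with Tnfrsf11b at 0.5 or more for 13 of 19 genes, against 9.45% of all genes, with a median of 0.553 against 0.010. Among them were Cish (0.793), a STAT5-induced feedback inhibitor, Ccnd2 (0.775), the D cyclin of beta cells, Socs2 (0.768), a related inhibitor, and Cldn8 (0.741), a tight-junction gene. Part of this likeness is the shared genotype difference. Tnfrsf11b was chosen by its lower value in PrlR+/-, and 17 of the 19 genes were lower as well. The comparison with all genes is therefore a description and no test. For deviations from the genotype means the median was 0.373, 14 of 19 were positive, and Tph2, Ehhadh and Ivd lay at 0.07, -0.07 and -0.34. The same was not computed over all genes, so nothing is read from this median and count.

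None of the genes in the related lists passed limma's test over all genes, which called 0 of 19938 genes (0%) at an adjusted p under 0.05 and left 438 genes with an unadjusted p under 0.05. The smallest adjusted p was 0.99. Each list is therefore described by its counts and median beside those of all genes, whose median difference was 0.014 with 56.2% of genes higher in PrlR+/-. In the prolactin-responsive list 17 of 19 genes were lower, the median was -0.284 and the groups did not overlap for 4 genes, all lower, against 1.21% of all genes. The 2 lower genes with the smallest unadjusted p were Lrrc55 (-0.79 ± 0.12, SE) and Ivd of leucine breakdown (-0.45 ± 0.12). The 2 higher genes were the mitotic genes Foxm1 (0.12 ± 0.16) and Birc5 (0.03 ± 0.07).

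Downstream of RANK, 27 adaptors, kinases and NF-κB proteins had a median difference of -0.019, with 17 lower and 10 higher. Traf6, the adaptor that RANK uses for NF-κB, differed by -0.09 ± 0.08 (SE). The NF-κB subunit gene Rel was at -0.23 ± 0.12 and Ikbkg, the regulatory subunit of the IκB kinase, at -0.20 ± 0.11. Ikbkg ran from 8.39 to 8.42 in PrlR+/+ and from 7.92 to 8.34 in PrlR+/- mice, and it was 1 of 2 genes of this list whose groups did not overlap, both lower, where 1.21% of all genes were. On the higher side were the docking protein gene Gab2 (0.23 ± 0.17) and the p38 kinase gene Mapk14 (0.07 ± 0.05).

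Among 20 genes that RANK signalling switches on or needs in osteoclasts, the median was 0.021, with 12 higher and 8 lower. Nfatc1, the main transcription factor of that programme, differed by 0.15 ± 0.11 (SE). Spi1, a transcription factor of myeloid cells, was at 6.56 to 6.75 in PrlR+/+ and 6.84 to 6.96 in PrlR+/- mice, a difference of 0.22 ± 0.07, and was the 1 gene of the 20 whose groups did not overlap, where 1.03% of all genes were separate and higher. Macrophage and dendritic cell markers averaged, beside it, 6.64 to 6.72 in PrlR+/+ and 6.74 to 6.87 in PrlR+/- mice, and their part in the Spi1 values was not tested. Csf1r belongs to both lists. Mitf differed by 0.26 ± 0.16, and the immediate early genes Junb and Fos by -0.48 ± 0.24 and -0.84 ± 0.69. Fos ranged from 7.01 to 10.30 within the PrlR+/+ mice alone.

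No gene of the TRAIL death pathway passed the test. Of 22 measured genes 13 were lower and 9 higher, with a median of -0.075, and the groups overlapped for every one of them. Casp8, the initiator caspase that TRAIL receptors recruit, had the lowest difference, -0.41 ± 0.26 (SE), and was named after its values were seen; its adaptor gene Fadd differed by 0.06 ± 0.07. Mcl1, an inhibitor of mitochondrial death, and Apaf1 of the apoptosome were at -0.18 ± 0.09 and -0.13 ± 0.08, and Cycs, cytochrome c, and Bak1 were at 0.19 ± 0.07 and 0.11 ± 0.11. The mouse TRAIL decoy receptor genes Tnfrsf22 and Tnfrsf23 differed by -0.10 ± 0.14 and -0.21 ± 0.26. The list median stayed below 0 in all 12 alternatives, between -0.08 and -0.03.

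Other proteins that bind osteoprotegerin or handle RANKL had a median of 0.010 over 12 genes, 6 higher and 6 lower, and its sign held in 5 of 12 alternatives. Lgr4, a second receptor for RANKL, differed by -0.21 ± 0.23 (SE). Adam10 and Adam17, membrane proteases that cut TNF family proteins, were at -0.14 ± 0.08 and -0.12 ± 0.12, the heparan sulfate proteoglycan gene Sdc1 at 0.15 ± 0.08 and the protease gene Mmp7 at 0.18 ± 0.10. Mmp7 ran from 5.27 to 5.37 in PrlR+/+ and from 5.38 to 5.77 in PrlR+/- mice. It was the 1 gene of the 12 whose groups did not overlap, where 1.03% of all genes were separate and higher. Mmp7 was dim, with most values below the lower quartile of an array, 5.62 to 5.82. Dim genes made up many such cases: with the filter at the 40th percentile, 107 genes were separate and higher instead of 205.

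In the wider families the medians lay close to 0. The median was 0.035 over 25 other TNF receptor genes (14 higher, 11 lower) and 0.036 over 14 other TNF ligand genes (9 higher, 5 lower), and the groups overlapped for all of them. Under the alternatives the sign of these medians turned in 1 and 2 of 12 settings. Ngfr, the low-affinity neurotrophin receptor, had the lowest difference among the receptors, -0.47 ± 0.15 (SE), with 8.54 to 9.06 in PrlR+/+ and 8.15 to 8.59 in PrlR+/- mice. Tnfrsf14 (0.24 ± 0.10) and Edar (0.20 ± 0.09) were on the higher side. Among the ligands, the 2 higher genes of smallest unadjusted p were Tnfsf9 (0.13 ± 0.08) and Tnfsf13b (0.11 ± 0.09), and the 2 lower ones Tnfsf18 (-0.03 ± 0.08) and Tnf (-0.02 ± 0.06). Many ligand probe sets were dim, with a list mean of 5.39 to 5.63.

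**Figure D4:**
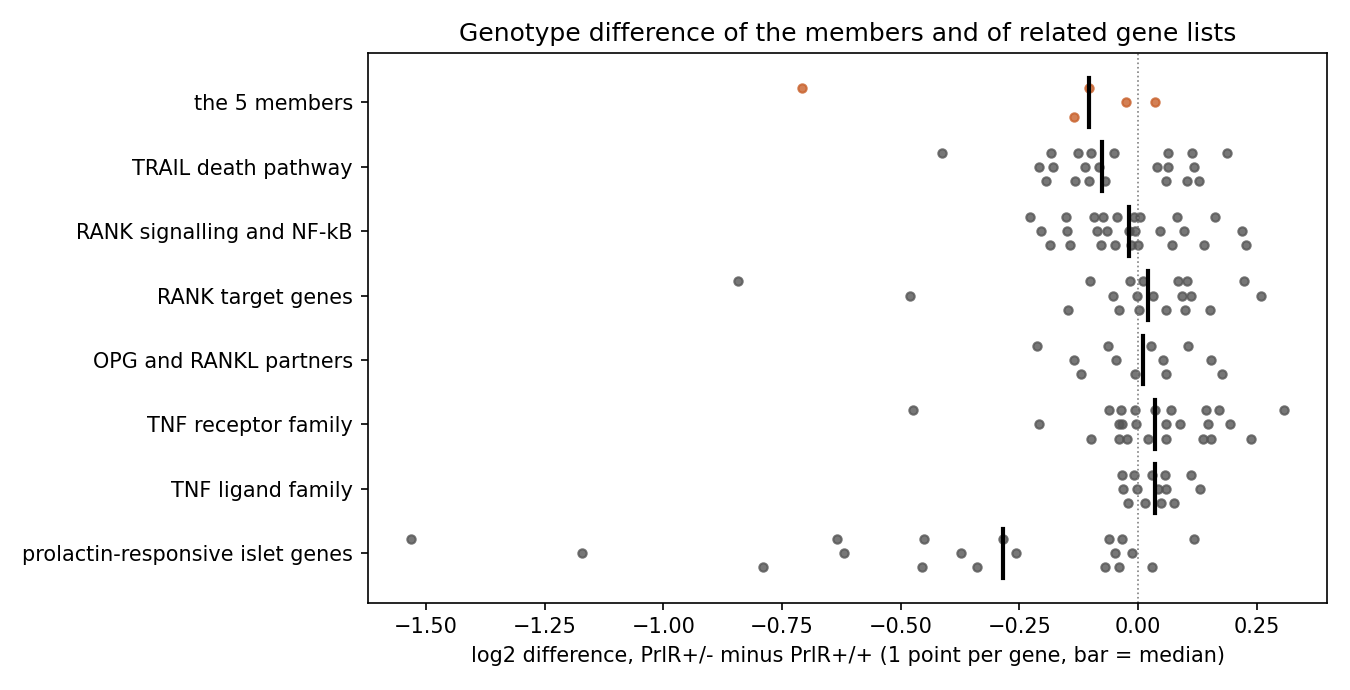
Log2 difference, PrlR+/- minus PrlR+/+, of the 5 genes (orange) and of 7 related gene lists (grey, 1 point per gene; black bars are medians; the vertical spread only separates points). Tnfrsf11b at -0.71 lies left of all genes of the TNF receptor and ligand lists, and the prolactin-responsive list has a median of -0.284.

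Markers of the cell types in the preparation moved with some of the 5 genes. The RANKL gene followed stellate cell and fibroblast markers, at 0.840 over the 7 mice and 0.792 without the 2 mice farthest from its median. In the PrlR+/+ mice these 9 markers averaged 7.35, 7.46 and 7.23, and in the PrlR+/- mice 7.50, 7.72, 7.25 and 7.51. The third mouse of each genotype was lowest in its group for the markers and for Tnfsf11. The collagen gene Col1a1, picked after its values were seen, correlated with Tnfsf11 at 0.886. RANK ran the other way, at -0.657, and at -0.535 without the 2 mice farthest from its own median. The part of stromal cells in the RANKL values was not tested.

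TRAIL followed the means of the beta and delta cell markers. Tnfsf10 correlated at 0.872 with the mean of 7 beta cell markers and at 0.865 with that of 2 delta cell markers, Sst and Hhex. By ranks (Spearman) the correlations were lower, at 0.595 and 0.739. Without PrlR+/- 2 and PrlR+/- 4 the Pearson correlations were 0.957 and 0.886. The 5 mice left still held PrlR+/+ 2, the lowest of them for Tnfsf10 and for both marker means, so these values lean on that mouse. With the alpha cell markers Tnfsf10 correlated at 0.356 and with Ppy, the PP cell marker, at 0.008. These markers left little room to show a relation. Ppy ran only from 13.57 to 13.70 and Gcg from 13.47 to 13.63, where the highest value was 13.79. Sst was as bright, at 13.36 to 13.70, while Hhex ran from 6.75 to 7.73. No contrast between endocrine cell types is therefore read from these correlations. The beta cell mean was lowest in PrlR+/- 4 (11.71) and PrlR+/+ 2 (11.86) and 11.97 to 12.07 in the 5 other mice, and Tnfsf10 was lowest in the same 2 mice. With B cell markers, which were dim at 5.32 to 5.92, it correlated at -0.839, and at -0.552 without the same pair left out above. Tnfrsf10b correlated with the delta cell markers at -0.764, a relation that rests on PrlR+/+ 2 and PrlR+/- 4, since it was 0.697 without them. The pattern was common: of 3000 genes, 166 or 5.53% correlated with Tnfsf10 at 0.9 or beyond in either direction, against 3 with Tnfrsf11b, 16 with Tnfsf11, 7 with Tnfrsf11a and 11 with Tnfrsf10b. The part of beta and delta cells in the TRAIL values was not tested.

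Osteoprotegerin did not follow the beta cell markers, at 0.016 over the 7 mice. Its strongest relations among the 13 marker lists were negative, at -0.811 with alpha cell and -0.729 with duct markers. The alpha cell mean, over Gcg and Irx2, was 11.36 to 11.37 in PrlR+/+ and 11.40 to 11.46 in PrlR+/- mice. Gcg ran only from 13.47 to 13.63 and Irx2 from 9.21 to 9.42. The alpha cell correlation thus rests on small steps, which include the step between the genotypes. No contrast between endocrine cell types is read from it. Duct markers averaged 7.39 to 7.58 in PrlR+/+ and 7.46 to 7.77 in PrlR+/- mice. The parts of these cells in the Tnfrsf11b values were not tested. The beta cell means of the genotypes overlapped, 11.86 to 12.07 in PrlR+/+ and 11.71 to 12.01 in PrlR+/- mice.

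Across the alternatives the differences of the 4 partner genes stayed small or changed sign, and that of osteoprotegerin stayed negative. The Tnfsf11 difference ran from -0.03 to 0.14, that of Tnfsf10 from -0.32 to 0.18 and that of Tnfrsf10b from -0.13 to 0.14. It was 0 for Tnfsf11 without PrlR+/- 2 and for Tnfrsf10b without PrlR+/- 3. For Tnfsf10 it was 0 without PrlR+/+ 1 and also without PrlR+/+ 3. Tnfrsf11a and Tnfrsf11b kept the sign found with all mice in 11 of 11 alternatives.

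**Figure D5:**
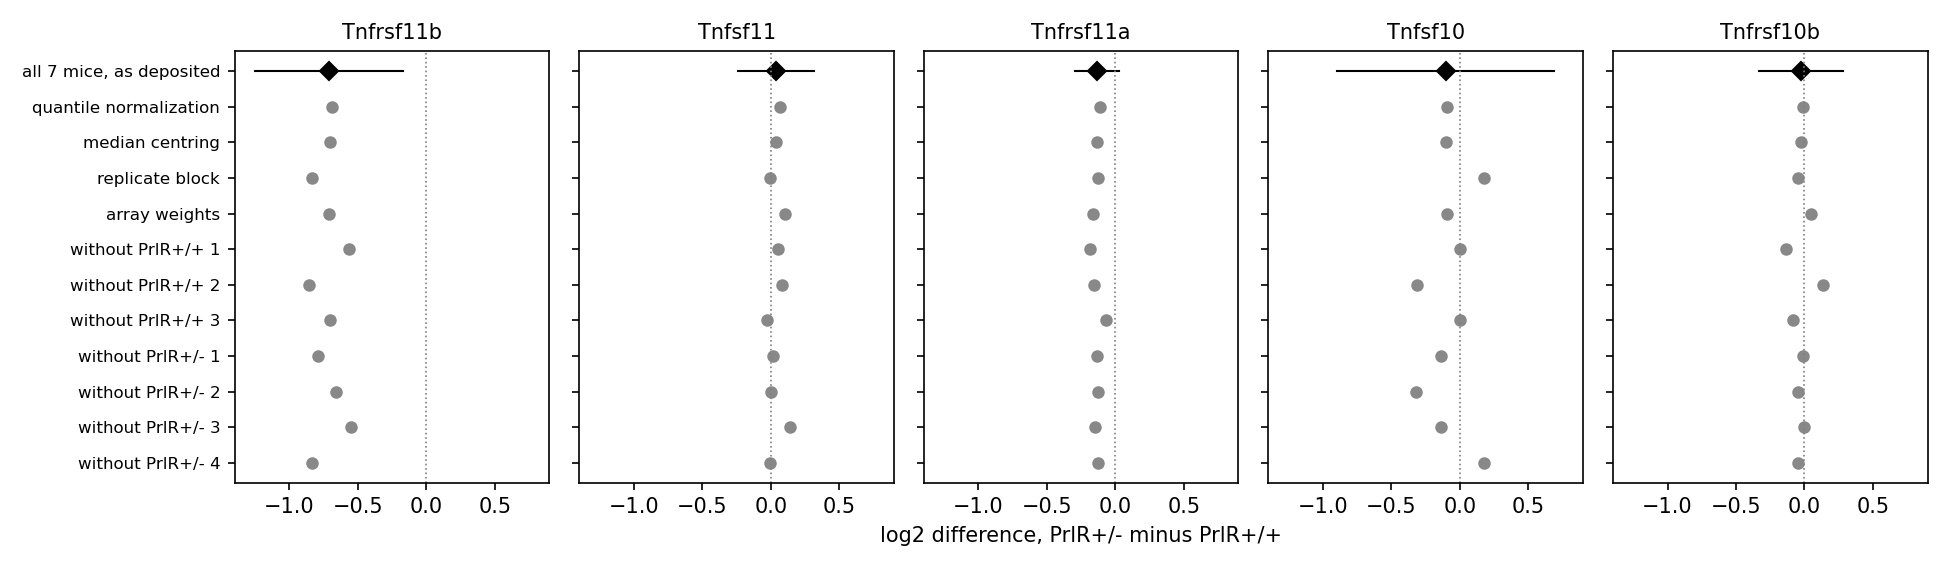
Log2 difference, PrlR+/- minus PrlR+/+, of each gene with all 7 mice (black diamond with its 95% interval) and under 11 alternatives (grey points): other scalings, the replicate number as a block, array weights and leaving out each mouse. The Tnfrsf11b points lie between -0.86 and -0.55, and the Tnfsf10 points lie on both sides of 0.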

How the data were processed

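Total RNA of islets from each mouse was hybridised to an Affymetrix array after labelling of 250 ng with an integrity number above 8.5. The authors deposited log2 values with 2 decimals, whose scale was inferred from their range. Software was Affymetrix Expression Console 1.2.0.20, per the submitters' processing notes, with background correction and normalization not given in the sources used here.

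Probe sets with 1 gene symbol in the platform annotation were kept, 21789 of 35556, and the probe set with the highest mean stood for a gene (19938 genes). Differences are PrlR+/- minus PrlR+/+ from limma 3.58.1 (lmFit, eBayes) in R 4.3.3; p-values are 2-sided and adjusted over all genes by Benjamini-Hochberg; the steps were tested on simulated data. The genes described, the 7 pathway and 13 marker lists and the tests were chosen with earlier results of these data known. Named list genes are the 2 of smallest unadjusted p per direction. Lgr4, Traf6, Fadd, Nfatc1, Tnfrsf22 and Tnfrsf23 were added for their roles, and Casp8 after its values were seen. Alternatives were quantile normalization, median centring, a filter at the 40th percentile of the mean, the mean of all probe sets, trend and robust eBayes, array weights, the replicate number as a block and leaving out each mouse.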

Additional observations from a re-analysis of the deposited data

Results flagged for a closer look

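Among 67 genes and ratios named here, 7 had a PrlR+/- mouse whose gap to its nearest neighbour took up more of the range of the 4 mice than Dixon's 95% critical value, a limit that chance passes in about 1 of 20 groups. The RANKL gene Tnfsf11 was at 7.22 in PrlR+/- 3, with a gap of 0.881 of the range, and the Tnfsf11 to Tnfrsf11a ratio at -0.43 in that mouse (0.84). PrlR+/- 3 also stood apart for Mapk14 (10.49; 0.875), Txnrd2 (7.11; 0.843), Mlph (9.45; 0.929) and Net1 (8.16; 0.875). Txnrd2, Mlph and Net1 were named for their correlation with Tnfrsf11b, which was lowest in PrlR+/- 3. That choice favours genes with an extreme value in this mouse, and the flagged ratio contains Tnfsf11. The 7 flags are therefore not independent, and their count is not read against 1 of 20. Fadd was at 8.66 in PrlR+/- 2, with the 3 other mice equal (1 of the range).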

How the results depend on the processing

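All 5 gene differences and all 7 list medians moved by less than the spread between mice under each alternative run. limma called 0 genes under all 14 alternatives, with 247 to 1132 genes at an unadjusted p under 0.05. The count of genes whose groups do not overlap, 446, was 711 with quantile normalization and 705 (without PrlR+/- 4) to 2049 (without PrlR+/+ 2) when a mouse was left out, where smaller groups separate more easily. With the replicate block, which in effect leaves out the unmatched PrlR+/- 4, the Tnfrsf11b difference was -0.84 and the Tnfsf10 difference 0.18; no call changed. Deviations of same-numbered mice correlated at 0.05, -0.44 and 0.01, so the numbers were not taken as pairs. The mean of all probe sets changes no value of the 5 genes, which have 1 probe set each. No measure of signal over background was analysed, so small differences of dim genes may be hidden.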
